A study of Homo sapiens with 16 samples.

Results

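The levels of 10 long noncoding RNAs (lncRNAs) were followed in HEK293 cells, an established human embryonic kidney line, with and without silencing of Gemin5, an RNA-binding protein that delivers small nuclear RNAs to the SMN complex and binds ribosomes. The members were the genes listed by symbol as *NEAT1*, *MALAT1*, *TUG1*, *NORAD*, *OIP5-AS1*, *PVT1*, *LINC01311*, *LINC00324*, *PINCR* and *MIR17HG*, that is 10 of the 58302 gene identifiers in the count tables, and all 10 had reads in every one of the 16 libraries. They were listed with results of the same libraries already known. *LINC01311*, *LINC00324*, *PINCR* and *PVT1* are on lists that the study or an earlier analysis made from the change of read count in Polysome with silencing. They were taken as selected on it, and their polysome values are given as a description with no p-value. The study's list that holds *LINC01311* also required an unchanged Input level, so its Input change is given in the same way. Which values, if any, chose the other 6 is not recorded, so their p-values may not be independent of that choice.

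Each of 4 groups held 4 libraries. Silenced cells (siRNAG5) received 100 nM of an siRNA against Gemin5, and their partners (Ctrl) did not, being called untreated in the labels and given a control siRNA in the study's methods. From each condition RNA was taken from the whole cytoplasmic lysate (Input) and from the pooled heavy fractions of a sucrose gradient that hold several ribosomes on one RNA (Polysome), so both fractions were cytoplasmic and the nuclear pool was not measured. Poly(A)-selected, strand-marked RNA was sequenced, and the reads of each gene were counted.

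Levels are given as CPM, gene reads scaled to a common library total with TMM factors over the 16 libraries, with the SD over 4 libraries. A log2 fold change (log2 FC) was called higher or lower when the Benjamini-Hochberg adjusted p of edgeR's quasi-likelihood test was under 0.05 over all genes tested and the change was beyond 0.5, and its standard error (SE) follows it. *GEMIN5* itself stood at 17.7 ± 2.33 CPM in Input Ctrl and 6.56 ± 0.415 in Input siRNAG5 (SD, n = 4), and at 7.49 ± 1.60 in Polysome Ctrl and 2.72 ± 0.564 in Polysome siRNAG5.

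The libraries differed in ways that bear on the values. Gene reads ran from 11145324 to 24511299 per library. Reads mapped to several places took 4.88 to 6.04% of Input libraries and 21.2 to 42.4% of Polysome libraries. All 5 HEK293 markers (*VIM*, *KRT8*, *KRT18*, *NEFL*, *NEFM*) were detected in every library. A list of 12 genes of liver (*ALB*, *APOB*, *SERPINA1* and others) summed to 141 CPM in Input Ctrl 3 and 123 CPM in Input Ctrl 4, with none of the 12 at 0. The same sum was 2.55 CPM in Input Ctrl 1 and 1.11 CPM in Input Ctrl 2, it was between 78.9 and 158 CPM in the Polysome Ctrl libraries, and it was at most 1.26 CPM in the siRNAG5 libraries, where 7 to 9 of the 12 genes were at 0. Liver reads thus moved with the condition in Polysome and split the Ctrl libraries of Input. Separately, Polysome Ctrl 1, Polysome siRNAG5 1 and Polysome siRNAG5 4 stood apart on the third principal component, and their summed mitochondrial mRNAs, which cytosolic ribosomes do not translate, reached 11800, 21500 and 21300 CPM against 4530 to 10600 CPM in the other Polysome libraries.

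Long noncoding RNAs are transcribed and often spliced and polyadenylated like mRNAs but are not known for a long conserved protein product. Some act in the nucleus: *NEAT1* builds paraspeckles, and *MALAT1* lies in nuclear speckles with splicing factors. Others act in the cytoplasm, where *NORAD* binds Pumilio proteins and *OIP5-AS1* pairs with the microRNA miR-7, and some are precursors of microRNAs, as *MIR17HG* is. A transcript without a long reading frame can still be found in polysomes, either bound by ribosomes or carried in other heavy particles, and the gradient does not separate these.

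Sequence features set the members apart before any level was compared. *NORAD* is shown first because its repeated Pumilio sites define it. Its single-exon transcript of 5401 bases (chr20:36045618-36051018, GRCh38, minus strand) held 15 copies of the Pumilio motif TGTANATA, searched on the transcript strand. One or more copies were found in 9.85% of 18695 annotated lncRNA transcripts, and 8 of these held 10 or more. *NEAT1* held 6 copies in 22743 bases, *TUG1* held 2 in 7474 bases and the other 7 members held none. Copies were not adjusted for length, and the median annotated lncRNA transcript had 809 bases. The motif is in capitals in these 4 of the 15 windows, written as DNA with the transcript position of the motif's first base in parentheses:
NORAD site 1 (819): ggaaggcctgTGTATATAatatgaaaaa
NORAD site 3 (1299): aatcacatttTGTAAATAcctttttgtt
NORAD site 5 (1509): gtgtatatagTGTACATAaaggacagac
NORAD site 11 (3030): aaccctactgTGTATATAgcggacaaac

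*NEAT1* (chr11:65422774-65445540, plus strand) and *MALAT1* (chr11:65497640-65508073, plus strand) are neighbours on chromosome 11, each annotated here as a single exon. *MALAT1* and the long form of *NEAT1* are known to end in a genome-encoded A-rich stretch that is folded into a triple helix in place of an added poly(A) tail, which matters for libraries made by poly(A) selection. The last 11 bases of the annotated *NEAT1* transcript were also found within *MALAT1*, and are in capitals in these windows of the GRCh38 reference:
NEAT1 (chr11:65445511-65445540): ctgtgaaagagtgagcaggAAAAAGCAAAA
MALAT1 (chr11:65506087-65506116): ttttctagcttaaaaaaaaAAAAAGCAAAA

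*MIR17HG* (chr13:91347686-91397592, plus strand) carries the miR-17-92 cluster, a set of microRNAs known to promote cell growth. The 12 mature microRNAs of RefSeq that lie in it fall in an intron of the canonical transcript. They are shown to say what the transcript encodes, and were not measured, since the libraries held long polyadenylated RNA. Of the 12, 6 share their seed (bases 2 to 8, in capitals) with another microRNA of the cluster:
hsa-miR-17-5p: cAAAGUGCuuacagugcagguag
hsa-miR-20a-5p: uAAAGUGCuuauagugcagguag
hsa-miR-19a-3p: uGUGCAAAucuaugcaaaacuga
hsa-miR-19b-3p: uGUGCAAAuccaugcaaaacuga
hsa-miR-19a-5p: aGUUUUGCauaguugcacuaca
hsa-miR-19b-1-5p: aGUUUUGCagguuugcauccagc

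The other members are spread over the genome. *TUG1* (chr22:30969245-30979395, plus strand) is annotated as protein coding in GENCODE v44, with a coding sequence of 153 codons that opens at CTG in place of ATG. Its longest reading frame from an ATG had 135 codons. *OIP5-AS1* (chr15:41283958-41322392, plus strand) shares 195 exon bases with *NUSAP1* and 513 with ENSG00000285920 on its own strand. *NEAT1*, *MALAT1*, *TUG1*, *PVT1* and *MIR17HG* share such bases with genes of small or miscellaneous RNAs. Reads on more than 1 gene were left out of the counts. The authors counted with another annotation release than GENCODE v44, so which bases were left out is not known. *LINC00324* (chr17:8220624-8224043, minus strand) and *LINC01311* (chr22:19171395-19172851, plus strand) have transcripts of 2100 and 1457 bases, and their longest reading frames from an ATG had 148 and 124 codons. *PINCR* (chrX:43176994-43226598, plus strand) has a transcript of 2228 bases in 6 exons. *PVT1*, the neighbour of *MYC* on chromosome 8, is annotated on the plus strand at 127794526 to 128187101. The median longest reading frame of annotated lncRNA transcripts was 61 codons, so each of the 10 members, at 70 to 148 codons, lay above it. All members but *MIR17HG* (747 bases) also had transcripts longer than the lncRNA median of 809 bases. The reading frames were not adjusted for length.

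**Figure D1:**
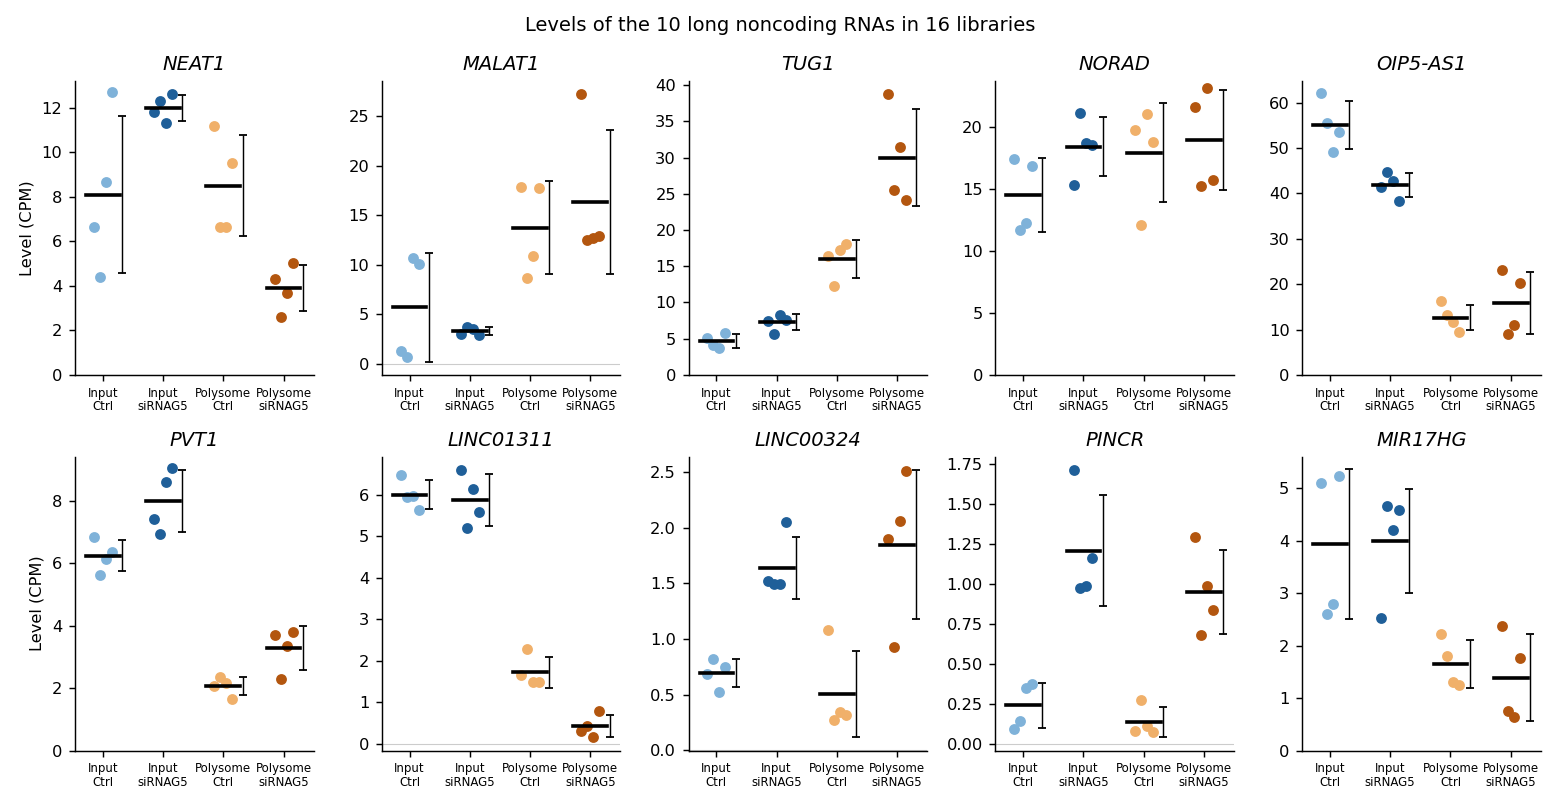
Level of each of the 10 lncRNAs in CPM (vertical axis, linear) in the 4 libraries of each group (points), with the group mean (line) and SD (bar). *TUG1* rises from Input to Polysome, *OIP5-AS1*, *PVT1*, *LINC01311* and *MIR17HG* fall, and *PINCR* and *LINC00324* rise with silencing in both fractions. *MALAT1* splits the Input Ctrl libraries into a low and a high pair.

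The first comparison set Polysome against Input in Ctrl cells, and asked which lncRNAs lay in polysomes more or less than in the lysate they came from. *TUG1* was higher in Polysome, *OIP5-AS1* and *MIR17HG* were lower, and *NEAT1* and *NORAD* did not pass the test. Of the 6 members not taken as selected on Polysome values, 1 was called higher, against 20.8% of the 13666 genes tested, and 2 were called lower, against 18.8%. All 983 lncRNA genes tested had a median log2 ratio of -0.20, with 7.53% called higher and 21.5% called lower, while protein-coding genes had a median of 0.03. Counted by libraries that did not overlap, 1 of the 6 was higher and 2 lower, and each direction held 22.1% of all genes. *LINC00324* and *PINCR* failed the filter in Ctrl cells, where *LINC00324* held 32 reads in Input and 27 in Polysome and *PINCR* held 11 and 8. Scaling by library totals in place of TMM moved the median log2 ratio of all genes from -0.03 to 0.51 and the calls from 2842 higher and 2566 lower to 6246 higher and 758 lower, so each ratio here is relative to the bulk of genes.

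*TUG1*, a conserved lncRNA first described in the developing retina, gave 5.10, 4.08, 3.77 and 5.81 CPM in Input Ctrl and 16.4, 12.2, 17.3 and 18.1 CPM in Polysome Ctrl. The lowest Polysome library lay above the highest Input library. The log2 ratio was 1.76 (SE 0.18, edgeR adjusted p = 1.409e-06), above 99.3% of the lncRNA genes tested. In siRNAG5 cells its Input libraries held 7.41, 5.70, 8.32 and 7.57 CPM and its Polysome libraries 38.8, 25.5, 31.4 and 24.2 CPM, again without overlap. That log2 ratio was 2.06 (SE 0.18, edgeR adjusted p = 3.69e-06).

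*OIP5-AS1*, also called Cyrano, lay at the other end. Its Input Ctrl libraries held 62.1, 55.5, 49.2 and 53.6 CPM and its Polysome Ctrl libraries 16.2, 13.3, 11.6 and 9.46 CPM. The groups did not overlap, and the log2 ratio was -2.14 (SE 0.16, edgeR adjusted p = 9.987e-08). In siRNAG5 cells the Input libraries held 41.4, 44.7, 42.8 and 38.3 CPM and the Polysome libraries 23.1, 9.0, 11.1 and 20.3 CPM, for a log2 ratio of -1.38 (SE 0.26, edgeR adjusted p = 0.0007639). The 2 high Polysome values belonged to siRNAG5 1 and siRNAG5 4, the libraries with the most mitochondrial mRNA. Without those 2 libraries and Polysome Ctrl 1 the ratio in siRNAG5 cells was -1.97.

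*MIR17HG* was lower in Polysome in both conditions. Its Ctrl libraries held 5.10, 2.60, 2.80 and 5.24 CPM in Input and 2.23, 1.80, 1.31 and 1.26 CPM in Polysome, a log2 ratio of -1.26 (SE 0.29, edgeR adjusted p = 0.002131). With silencing they held 2.53, 4.67, 4.21 and 4.58 CPM in Input and 2.37, 0.763, 0.645 and 1.77 CPM in Polysome, a log2 ratio of -1.53 (SE 0.37, edgeR adjusted p = 0.004094). The siRNAG5 call was lost under scaling by library totals, at -0.83 (edgeR adjusted p = 0.0525), and the ratio was -2.41 without Polysome Ctrl 1, siRNAG5 1 and siRNAG5 4. The groups did not overlap in either condition, and the highest siRNAG5 Polysome values were again those of siRNAG5 1 and siRNAG5 4.

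*NORAD*, with its 15 Pumilio motifs, did not pass the test in either condition. Its Ctrl libraries held 17.4, 11.7, 12.2 and 16.8 CPM in Input and 19.7, 12.1, 21.0 and 18.8 CPM in Polysome, with overlapping groups. The log2 ratio was 0.29 (SE 0.18, edgeR adjusted p = 0.2051) in Ctrl and 0.05 (SE 0.16, edgeR adjusted p = 0.8049) in siRNAG5 cells. Among its protein partners, *PUM2* mRNA was called higher in Polysome in Ctrl cells, with a log2 ratio of 1.66 (SE 0.18).

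*NEAT1* was called lower in Polysome in siRNAG5 cells and was not called in Ctrl cells. In Ctrl cells its Input libraries held 6.66, 4.38, 8.67 and 12.7 CPM and its Polysome libraries 11.2, 6.63, 6.63 and 9.54 CPM, which overlap, and the log2 ratio was 0.05 (SE 0.27, edgeR adjusted p = 0.8882). In siRNAG5 cells the Input libraries held 11.8, 12.3, 11.3 and 12.6 CPM and the Polysome libraries 4.32, 2.61, 3.66 and 5.02 CPM. There the groups lay far apart, and the log2 ratio was -1.61 (SE 0.19, edgeR adjusted p = 2.843e-05). The liver genes were between 78.9 and 158 CPM in the 4 Polysome Ctrl libraries and at most 0.884 CPM in the 4 Polysome siRNAG5 libraries, so the liver reads and the condition cannot be told apart in Polysome.

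*MALAT1* depended on which Input Ctrl libraries were used. Input Ctrl 1 and 2 held 1.27 and 0.668 CPM (13 and 9 reads), while Input Ctrl 3 and 4, the 2 with liver reads, held 10.7 and 10.1 CPM (122 and 108 reads). The Polysome Ctrl libraries, which all held liver reads, gave 17.8, 8.64, 10.9 and 17.7 CPM. The log2 ratio over all 8 libraries was 1.27 (SE 0.52, edgeR adjusted p = 0.0556). With the replicate number as a block it was 1.55 (edgeR adjusted p = 0.00816). It was 3.82 (edgeR adjusted p = 1.45e-05) without Input Ctrl 3 and 4, and 0.36 (edgeR adjusted p = 0.362) without Input Ctrl 1 and 2. The part of the liver reads in these values was not tested. In siRNAG5 cells, where liver genes were at or near 0 in all libraries, the 4 Input libraries held 2.98, 3.76, 3.56 and 2.95 CPM and the 4 Polysome libraries 27.2, 12.5, 12.7 and 12.9 CPM. These did not overlap, and the log2 ratio was 2.32 (SE 0.27, edgeR adjusted p = 2.913e-05).

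The remaining members are described without a p-value. *PVT1* stood at 6.25 ± 0.506 CPM in Input Ctrl and 2.06 ± 0.294 CPM in Polysome Ctrl (SD, n = 4), a log2 ratio of -1.60, and the ratio was -1.27 in siRNAG5 cells. *LINC01311* gave log2 ratios of -1.80 in Ctrl and -3.75 in siRNAG5 cells. *LINC00324* and *PINCR* had ratios of 0.18 and -0.34 in siRNAG5 cells, with overlapping groups. In siRNAG5 cells, 2 of the other 6 members were called higher and 3 lower, against 23.9% and 21.2% of the 14795 genes tested. The same 2 and 3 members had libraries that did not overlap, against 24.6% of all genes higher and 24.3% lower.

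**Figure D2:**
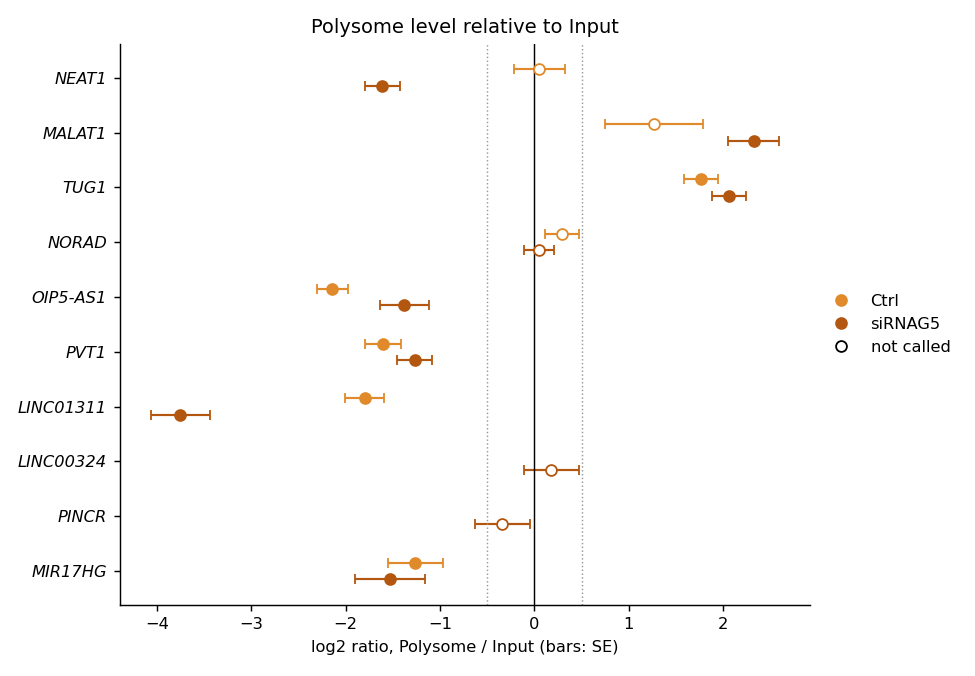
log2 ratio of Polysome to Input for each lncRNA in Ctrl (light) and siRNAG5 (dark) cells, with SE bars. Filled points were called, open points were not, dotted lines mark 0.5 in each direction, and *LINC00324* and *PINCR* have no Ctrl point because they failed the filter. *TUG1* lies right of 0 in both conditions, at 1.76 and 2.06, and *NEAT1* moves from 0.05 to -1.61.

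Other named lncRNAs gave a background for these ratios. Of 27 listed, 18 were tested in Ctrl cells, with a median log2 ratio of -0.30. Beside 20.8% of all genes called higher and 18.8% lower, 1 was called higher and 7 lower. *HOTAIR*, transcribed from the HOXC cluster, was the higher one at 0.76 (SE 0.22). *CRNDE*, at -2.33 (SE 0.18), and *EPB41L4A-AS1*, at -1.54 (SE 0.15), were the lowest. In siRNAG5 cells 19 were tested, 3 were called higher and 5 lower, beside 23.9% and 21.2% of all genes. The list was chosen with results of these libraries known. For a sense of scale, 10 mRNAs of common cytosolic proteins such as *ACTB* and *GAPDH* had a median log2 ratio of -1.01 in Ctrl, with 7 called lower, and all 13 mitochondrial mRNAs were called lower with a median of -3.18.

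The most extreme annotated lncRNAs of the Ctrl comparison with groups that did not overlap were not members. ENSG00000263731 (3.08), ENSG00000260257 (2.18) and *ZNF584-DT* (2.11) had the highest log2 ratios. ENSG00000272599 (-4.74), ENSG00000261889 (-4.50) and *MIR503HG* (-4.09), the host of a microRNA, had the lowest. *TUG1* carries the protein-coding label in GENCODE v44 and was not counted in this class.

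**Figure D3:**
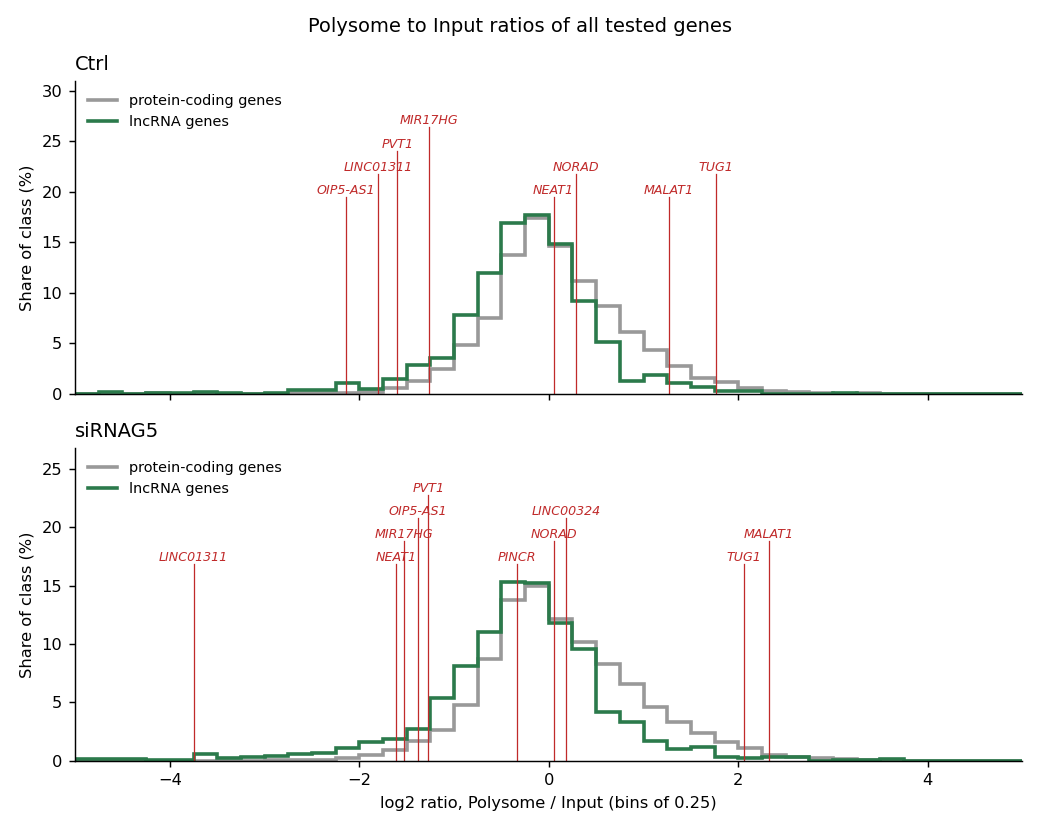
Share of lncRNA genes (green) and protein-coding genes (grey) in bins of 0.25 of the log2 ratio of Polysome to Input, in Ctrl (top) and siRNAG5 (bottom) cells, with red lines at the members tested. The lncRNA genes sit to the left of the protein-coding genes, with medians of -0.20 and 0.03 in Ctrl and -0.26 and 0.03 in siRNAG5 cells, and *MALAT1* and *TUG1* lie in the right tail.

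The effect of silencing was read first in Input, where it is the change of the cytoplasmic pool. *PINCR*, *LINC00324*, *TUG1* and *NEAT1* were called higher, no member was called lower, and 6 were not called. Over the 14134 genes tested, 10.5% were called higher and 6.02% lower. *PINCR* and *LINC00324* passed the filter on low counts only through the silenced libraries, where they were high, so they are described without a p-value and the count of 4 is not read against that share. By libraries that did not overlap, 3 members, these 2 included, were higher and 1 lower, while 14.4% and 19.8% of all genes were. The median log2 FC of all lncRNA genes was 0.12. Under scaling by library totals the median of all genes moved from 0.04 to 0.14 and the calls from 1479 higher and 851 lower to 2175 and 450. In bulk libraries, less RNA per cell and fewer cells holding that RNA cannot be told apart.

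*PINCR*, a lncRNA known to be induced by p53, rose from 1, 2, 4 and 4 reads in Input Ctrl to 27, 15, 20 and 22 reads in Input siRNAG5. In CPM these were 0.0980, 0.148, 0.350 and 0.375 against 1.71, 0.972, 0.990 and 1.16. The groups did not overlap, and the log2 FC was 2.30 (SE 0.43). The size of this fold rests on 11 reads in the Ctrl group.

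*LINC00324* held 0.686, 0.817, 0.526 and 0.749 CPM in Input Ctrl and 1.52, 1.49, 1.49 and 2.05 CPM in Input siRNAG5. All silenced libraries lay above all Ctrl libraries, with a log2 FC of 1.25 (SE 0.29). *TUG1* rose by less, with a log2 FC of 0.67 (SE 0.16, edgeR adjusted p = 0.0009795). Its highest Ctrl library, at 5.81 CPM, lay just above its lowest silenced library, at 5.70 CPM.

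*NEAT1* was called higher, with a log2 FC of 0.61 (SE 0.17, edgeR adjusted p = 0.006572). Its silenced libraries spanned 11.3 to 12.6 CPM, and Input Ctrl 4, at 12.7 CPM, lay above all of them. The call was lost without Input Ctrl 2, where the log2 FC was 0.38 (edgeR adjusted p = 0.0655), in DESeq2, where the log2 FC was 0.59 (adjusted p = 0.137), and in 1 edgeR fit of all 16 libraries, where it was also 0.59 (adjusted p = 0.129). Against Input Ctrl 1 and 2 alone, the libraries without liver reads, the log2 FC was 1.16, and against Input Ctrl 3 and 4 alone it was 0.20 (edgeR adjusted p = 0.381).

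*MALAT1* had no steady direction in Input. Its log2 FC was -0.73 (SE 0.40, edgeR adjusted p = 0.1567) over all libraries. Without Input Ctrl 3 and 4 it was 1.83 (edgeR adjusted p = 4.53e-05), and without Input Ctrl 1 and 2 it was -1.62 (edgeR adjusted p = 1.57e-06). The sign of the change was thus set by which pair of Ctrl libraries was kept, the pair at 141 and 123 CPM of liver genes or the pair at 2.55 and 1.11 CPM.

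Of the rest, 3 passed the adjusted p but not the change of 0.5. *OIP5-AS1* had a log2 FC of -0.37 (SE 0.08, edgeR adjusted p = 0.0005531), with every silenced library, at 38.3 to 44.7 CPM, below every Ctrl library, at 49.2 to 62.1 CPM. *PVT1* was at 5.64 to 6.86 CPM in Ctrl and 6.94 to 9.05 CPM in silenced libraries, a log2 FC of 0.39 (SE 0.13, edgeR adjusted p = 0.01952). *NORAD* had a log2 FC of 0.38 (SE 0.12, edgeR adjusted p = 0.01389), with overlapping groups. In 1 edgeR fit of all 16 libraries *OIP5-AS1*, *PVT1* and *NORAD* did not pass, with adjusted p of 0.268, 0.136 and 0.204. *MIR17HG*, at 3.94 ± 1.43 and 4.00 ± 0.994 CPM (SD, n = 4), had a log2 FC of 0.08 (edgeR adjusted p = 0.8019). As a description, *LINC01311*, at 6.0 ± 0.351 and 5.87 ± 0.618 CPM, had a log2 FC of 0.00. An unchanged Input level was part of how the study listed *LINC01311*.

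In Polysome, the contrast that put 4 of the members on the list, 3 members were called higher (*PINCR*, *LINC00324*, *TUG1*) and 2 lower (*NEAT1*, *LINC01311*). Over all 14420 genes tested, 3.95% were called higher and 4% lower. The libraries did not overlap for 2 members higher and 2 lower, and for 8.98% and 9.58% of all genes. Nothing is read from these counts, and the values follow as a description. Library totals in place of TMM moved the median of all genes from 0.03 to 0.38 and the calls from 569 higher and 577 lower to 2307 and 207. *PVT1*, at 0.68, lay just outside the rule for a call and inside it in 1 fit of all 16 libraries (0.64) and under library totals (1.02), and *NEAT1*, at -1.11, and *LINC00324*, at 1.93, were the called members nearest to it by adjusted p.

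*LINC01311* held 1.65, 2.28, 1.49 and 1.5 CPM in Polysome Ctrl and 0.309, 0.442, 0.172 and 0.791 CPM in Polysome siRNAG5, a log2 FC of -1.98. Its silenced libraries held 6, 11, 4 and 17 reads. Its Input levels had a log2 FC of 0.00. The study listed it for a change in Polysome with an unchanged Input, so nothing is read from this difference between the fractions.

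*NEAT1* fell from 8.49 ± 2.25 CPM in Polysome Ctrl to 3.90 ± 1.03 CPM in Polysome siRNAG5 (SD, n = 4), a log2 FC of -1.11 without overlap of the groups. The call was lost when Polysome Ctrl 1, 2 or 4 or Polysome siRNAG5 2 or 3 was left out, with log2 FC of -0.92 to -1.19 in those fits. It was also lost under scaling by library totals, at -0.78. The liver genes moved with this difference, at 78.9 to 158 CPM against 0.387 to 0.884 CPM, as did 6 blood genes, at 3.73 to 6.28 CPM against 0.563 to 0.884 CPM, and their part in it was not tested.

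*MALAT1*, by contrast, was not called in Polysome. It held 8.64 to 17.8 CPM in Ctrl and 12.5 to 27.2 CPM in silenced libraries, a log2 FC of 0.27. The highest value came from siRNAG5 1, and the other 3 silenced libraries lay between 12.5 and 12.9 CPM.

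*TUG1* was at 12.2 to 18.1 CPM in Polysome Ctrl and 24.2 to 38.8 CPM in Polysome siRNAG5, a log2 FC of 0.93. The groups did not overlap. *PINCR* held 1, 4, 2 and 1 reads in Polysome Ctrl and 25, 17, 23 and 18 reads in Polysome siRNAG5, a log2 FC of 2.71. *LINC00324* was at 1.08, 0.276, 0.343 and 0.315 CPM in Polysome Ctrl and 1.90, 0.924, 2.06 and 2.51 CPM in Polysome siRNAG5, a log2 FC of 1.93, with Polysome Ctrl 1 above Polysome siRNAG5 2. Its call was lost when any of Polysome Ctrl 2, 3 and 4 and Polysome siRNAG5 1 and 3 was left out, at log2 FC of 1.74 to 1.91. Without Polysome Ctrl 2, the calls of *TUG1* (0.83) and *LINC01311* (-1.80) were lost as well, and *PINCR* was the 1 member still called. *PINCR* was taken as selected on this contrast and held 8 reads in Polysome Ctrl, so nothing is read from its kept call.

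The other members did not pass the rule. *PVT1* was at 2.07, 2.35, 2.17 and 1.66 CPM in Polysome Ctrl and 3.70, 2.29, 3.35 and 3.81 CPM in Polysome siRNAG5, with 1 silenced library within the Ctrl range. *OIP5-AS1*, *NORAD* and *MIR17HG* had log2 FC of 0.34, 0.09 and -0.25 with overlapping groups.

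**Figure D4:**
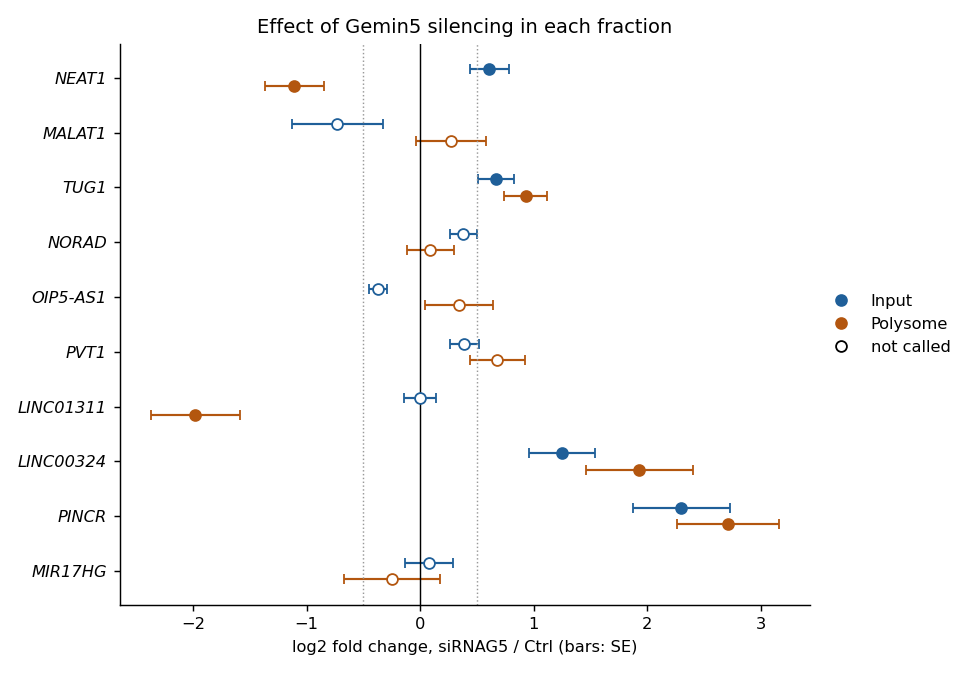
log2 FC of siRNAG5 over Ctrl for each lncRNA in Input (blue) and Polysome (brown), with SE bars. Filled points were called, open points were not, and dotted lines mark 0.5 in each direction. *PINCR*, *LINC00324* and *TUG1* lie to the right in both fractions, *NEAT1* lies at 0.61 in Input and -1.11 in Polysome, and *LINC01311* lies at 0.00 and -1.98.

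Whether polysome levels changed beyond Input was tested as a difference of the 2 log2 ratios in 1 fit of all 16 libraries. No member was called, nor was any of the 14958 genes tested, of which 1089 (7.28%) had an unadjusted p under 0.05. DESeq2 called 18 genes higher and 11 lower on the same contrast. *NEAT1* had a difference of -1.73 (SE 0.37, edgeR adjusted p = 0.2266, unadjusted p = 0.0001515), lower than that of all but 0.321% of the genes tested. DESeq2 gave it -1.70 (adjusted p = 0.00722). The value was -1.89 (edgeR adjusted p = 0.00186) without Polysome Ctrl 1, siRNAG5 1 and siRNAG5 4, and over all alternatives the adjusted p ran from 2.39e-06 to 1. It was -2.29 (edgeR adjusted p = 0.0188) without Input Ctrl 3 and 4, and -1.31 (edgeR adjusted p = 1) without Input Ctrl 1 and 2. *OIP5-AS1* had 0.69 (SE 0.33, edgeR adjusted p = 0.6845), and 0.16 without those 3 libraries. *MALAT1* (0.98, SE 0.72), *TUG1* (0.23, SE 0.26), *NORAD* (-0.31, SE 0.26) and *MIR17HG* (-0.34, SE 0.51) had edgeR adjusted p of 0.8264, 0.9023, 0.8644 and 0.9253. The value of *MALAT1* was -1.60 without Input Ctrl 3 and 4 and 1.87 without Input Ctrl 1 and 2. As a description, *LINC01311* had -2.01, *LINC00324* 0.65, *PINCR* 0.35 and *PVT1* 0.26.

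**Figure D5:**
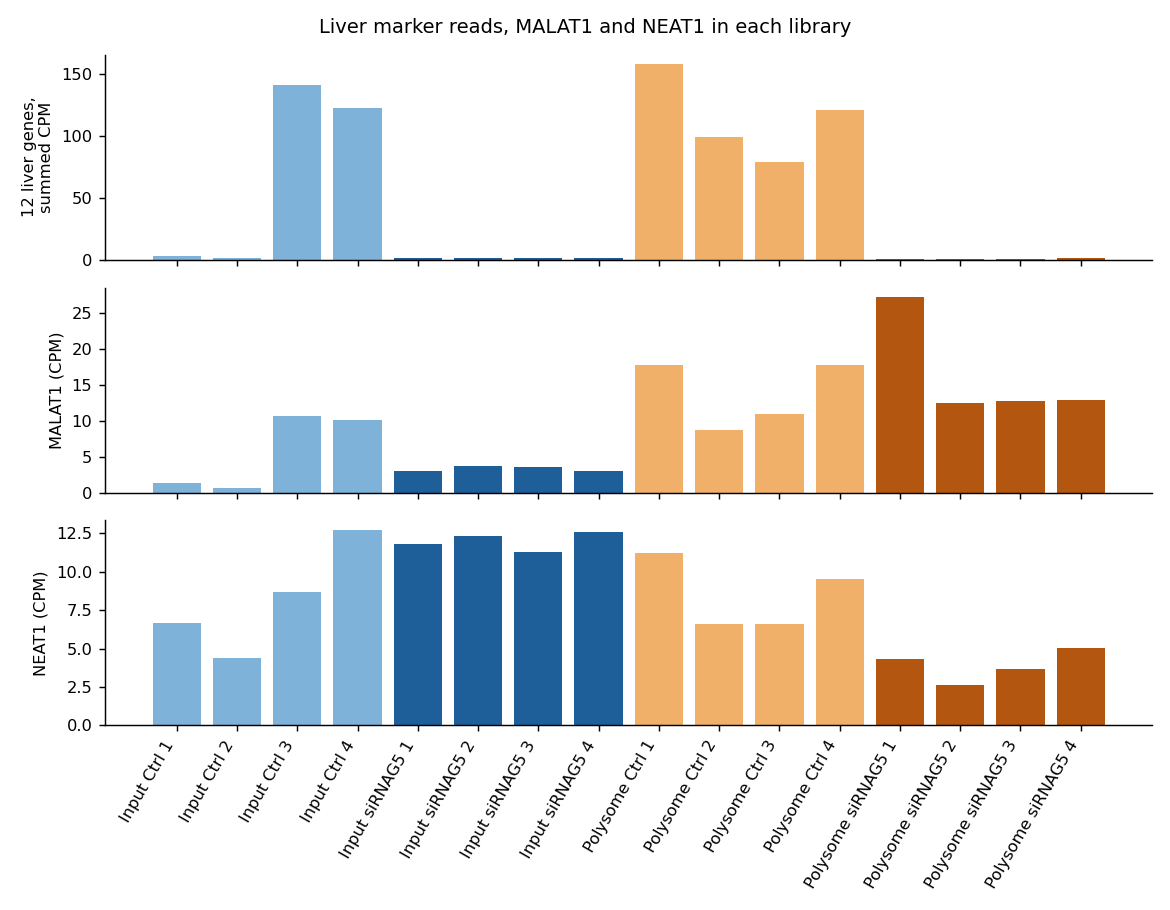
Summed CPM of 12 liver genes (top), *MALAT1* CPM (middle) and *NEAT1* CPM (bottom) in each of the 16 libraries, coloured by group. Liver genes stand at 78.9 to 158 CPM in 6 libraries, Input Ctrl 3 and 4 and the 4 Polysome Ctrl libraries, and at 2.55 CPM or less in the other 10. *MALAT1* follows them within Input Ctrl but is also high in Polysome siRNAG5, where they are near 0.

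Genes with a related role were counted in the same fits. Of 10 p53 targets, 5 were called higher with silencing in Input, led by *TP53INP1* (1.22, SE 0.33) and *ZMAT3* (1.16, SE 0.25), and 5 in Polysome, led by *ZMAT3* (1.46, SE 0.26) and *TP53INP1* (1.26, SE 0.21). Over all genes these shares were 10.5% and 3.95%. None was called lower, and 6 of the 10 were higher in Polysome than in Input in each condition, beside 20.8% of all genes in Ctrl and 23.9% in siRNAG5 cells. The list was chosen with results of these libraries known. Of 6 p53-responsive noncoding genes, 3 were tested, and *LINC-PINT* was called higher with silencing, at 1.21 (SE 0.20) in Input and 0.92 (SE 0.25) in Polysome. *TP53TG1* (0.08 in Input and -0.04 in Polysome) and *PURPL* (0.37 and 0.54) were not called. *LINC-PINT* and *TP53TG1* are also among the other named lncRNAs, so the lists are not separate.

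Of 27 other named lncRNAs, 19 were tested with silencing in each fraction. In Input 4 were called higher, led by *PCAT6* (1.40, SE 0.18) and *LINC-PINT*, and 3 lower, led by *FTX* (-0.85, SE 0.29) and *DANCR* (-0.68, SE 0.07). In Polysome 4 were called higher, led by *PCAT6* (1.59, SE 0.27) and *NKILA* (1.13, SE 0.25), and none lower. Over all genes, 10.5% were called higher and 6.02% lower in Input, and 3.95% and 4% in Polysome. The list was chosen with results of these libraries known, and the study itself listed *NKILA* as raised in Polysome with silencing. The counts are therefore not read against those shares. The median log2 FC of the list was 0.16 in Input and 0.21 in Polysome, beside 0.04 and 0.03 over all genes. Among 9 microRNA host genes 4 were tested, and in Input *MIR210HG* (0.65, SE 0.21) was higher and *DLEU2* (-0.56, SE 0.17) was lower. *DLEU2* is also 1 of the 27 other named lncRNAs.

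Protein partners of the members were read at the mRNA level. With silencing, 3 of 16 tested were lower in Input, led by *SRSF2* (-0.82, SE 0.07) and *SRSF1* (-0.71, SE 0.09), splicing factors of the nuclear speckles in which *MALAT1* lies. In Polysome *SRSF2* was lower at -0.94 (SE 0.19). Over all genes, 6.02% were called lower in Input and 4% in Polysome. This list too was chosen with results of these libraries known. The mRNAs of *DROSHA* and *DICER1*, which cut the precursors of microRNAs such as those of *MIR17HG*, were not called with silencing in either fraction.

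Likeness of pattern was measured as Pearson's r of log2 CPM over the 16 libraries against 14958 genes. It mixes fraction and condition, shares the libraries' scaling, and carries no p. *OIP5-AS1* was most like *MT-ND1* (r = 0.993) and *MT-ND2* (r = 0.992), mitochondrial mRNAs for subunits of respiratory complex I. *TUG1* was most like *NEK4* (0.986), a kinase gene, and *ARPIN* (0.978), which encodes an inhibitor of the Arp2/3 complex. *LINC01311* was most like *EEF1D* (0.986), a translation elongation factor subunit, and *MYG1* (0.982). *PVT1* was most like *YPEL1* (0.973) and *HEXA* (0.970), and *MIR17HG* was most like *LYPD6* (0.953) and *PELP1-DT* (0.941).

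*PINCR* was most like *CRIP2* (r = 0.931) and *NUPR1* (0.928), and *LINC00324* was most like *IFITM2* (0.920) and *LINC01569* (0.914). *MALAT1* was most like *SERPINB9* (0.919) and *PROX1* (0.884). *NEAT1* was most like *H4C11* (0.895), a histone gene, and *HSPG2* (0.875), and *NORAD* had the weakest matches, ENSG00000253878 (0.795) and *C3orf80* (0.789). Among the members themselves, *OIP5-AS1* ran with *PVT1* (r = 0.904) and against *TUG1* (r = -0.831), *TUG1* ran against *LINC01311* (r = -0.945), and *PINCR* ran with *LINC00324* (r = 0.772). *LINC01311*, *LINC00324*, *PINCR* and *PVT1* were taken as selected on the Polysome change, and that change enters r. Nothing is read from the r of pairs that hold any of them.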

How the data were processed

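The 16 libraries were poly(A)-selected, strand-marked RNA-seq of Input and Polysome RNA of HEK293 cells. Per the labels and the study's methods, the authors aligned paired reads with STAR 2.5.3a to GRCh38 and counted uniquely mapped reads per gene with QoRTs, and the deposited values are raw counts for 58302 Ensembl gene identifiers. Reads on more than 1 gene or mapped to several places were set apart by the authors, and these rows were left out of all totals and tests (4.14 to 7.41% ambiguous, 0.667 to 1.33% without a feature and 4.88 to 42.4% multiply mapped). Symbols, biotypes and coordinates came from GENCODE v44, which matched 57532 identifiers, and microRNA sequences from RefSeq.

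Counts were filtered with filterByExpr, scaled by TMM and tested with edgeR 4.0.16 (R 4.3.3) by the quasi-likelihood test in 4 comparisons of 8 libraries and in the difference of the ratios over 16 libraries. Calls needed an adjusted p (Benjamini-Hochberg) under 0.05 together with a log2 change beyond 0.5, the cutoffs the study states, except that it names no adjustment of P. Alternatives were DESeq2 1.42.0, RLE, no filter, a replicate block, 1 fit of all libraries, each library left out, leaving out the 3 Polysome libraries that stood apart, an unadjusted p for silencing in Polysome, and 3 added after the data were seen (library totals, and leaving out Input Ctrl 3 and 4 or Input Ctrl 1 and 2). The code was tested on simulated data. Nothing beyond the study's description as independent biological samples says how replicates were separated. Log2 CPM for likeness used a prior count of 2.

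The members and gene lists were chosen with earlier results of these data known. The genes named are the members, at most 2 called genes of each list per direction and comparison with the rest as counts, *GEMIN5*, the 2 genes most like each member and the 3 lncRNAs at each end of the Ctrl ratio. Genes named beyond this rule (*DROSHA* and *DICER1* with silencing) were chosen after their values were seen, and some genes of the lists are not reported here. Of the other lists, brain genes (5) summed to 1.39 to 6.15 CPM per library. Cytosolic mRNAs (10) had 1 called lower with silencing in Input and none in Polysome, beside 6.02% and 4% of all genes.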

Additional observations from a re-analysis of the deposited data

Results flagged for a closer look

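Within each group of 4 libraries, the highest and lowest library was compared with its nearest neighbour, and 3 of the 40 groups of the 10 lncRNAs held a library whose gap to the nearest other took more of the group's range than Dixon's 95% limit. Chance alone gives about 1 such group in 20.

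*MALAT1* was at 27.2 CPM in Polysome siRNAG5 1, while the other 3 libraries of that group lay between 12.5 and 12.9 CPM. *LINC00324* was at 2.05 CPM in Input siRNAG5 4, against 1.49 to 1.52 CPM in the others. *LINC00324* was at 1.08 CPM in Polysome Ctrl 1, from 13 reads, against 0.276 to 0.343 CPM in the others. Polysome siRNAG5 1 and Polysome Ctrl 1 are among the 3 libraries that stood apart on the third principal component.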

How the results depend on the processing

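*MALAT1* in Input reversed to a log2 FC of 1.83 without Input Ctrl 3 and 4. Members called lower with silencing in Input went from 0 to 1 (*MALAT1*) without the filter on low counts and without Input Ctrl 1 and 2, and ran from 0 to 1 with 1 library left out. In Polysome, members called lower with silencing went from 2 to 1 under library totals and from 0 to 2 with 1 library left out, and those called higher ran from 1 to 3 with 1 library left out. Members higher in Polysome than in Input in Ctrl went from 1 to 2 (*MALAT1* added) without the filter, with the replicate block and without Input Ctrl 3 and 4, to 3 under library totals (*MALAT1* at 1.80 and *NORAD* at 0.84), and ran from 1 to 2 with 1 library left out. In siRNAG5 cells they went from 2 to 4 under library totals, where *MIR17HG* was no longer called lower. *PVT1* gained a call with silencing under library totals in Input (0.50) and Polysome (1.02), and in Polysome in 1 fit of all libraries and at an unadjusted p. For the difference of the ratios, members called lower went from 0 to 2 (*NEAT1* and *LINC01311*) with DESeq2, without the filter and without Polysome Ctrl 1, siRNAG5 1 and siRNAG5 4, and to 1 (*NEAT1*) without Input Ctrl 3 and 4, and ran from 0 to 1 (*LINC01311*, without Polysome siRNAG5 4) with 1 library left out. The cause of these shifts was not tested. *LINC01311* and *PVT1* were taken as selected on the Polysome change, and *LINC01311* also on an unchanged Input. Nothing is read from the calls on these members.

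Over all genes with silencing in Polysome, 569 higher and 577 lower became 840 and 1101 with DESeq2, 825 and 941 without the filter, 1077 and 1520 in 1 fit of all 16 libraries, 1327 and 1788 without the 3 libraries that stood apart, 1599 and 1343 at an unadjusted p, and 76 and 113 without Polysome Ctrl 2. For the difference, 0 and 0 became 28 and 29 without the filter, 106 and 659 without those 3 libraries, and 0 and 9 without Input Ctrl 3 and 4. Polysome to Input calls in siRNAG5 cells went from 3535 higher and 3132 lower to 8516 and 797 under library totals, with a median of 0.69 in place of -0.04.

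Same-numbered libraries did not deviate together in a steady way. The correlations of their deviations ran from -0.531 to 0.484 between Polysome Ctrl and siRNAG5. They ran from -0.0744 to 0.187 between Input and Polysome Ctrl, and from -0.207 to 0.225 between Input and Polysome siRNAG5. The study took Input and Polysome RNA from the same lysates, but the labels do not say that the numbers mark lysates. The numbers were not taken to pair libraries, so the Polysome to Input tests may leave out a pairing. With the replicate block, *MALAT1* in Ctrl had a log2 ratio of 1.55 (edgeR adjusted p = 0.00816), and no other call on a member changed. The block took genes called with silencing in Polysome from 569 and 577 to 444 and 558. Depth limits *PINCR*, *LINC00324* and *LINC01311* most, at 8, 27 and 38 reads in their lowest group of 4 libraries.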
